A study of Mus musculus with 13 samples.

Results

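Leukaemia inhibitory factor (LIF) is the cytokine that keeps mouse embryonic stem cells (mESCs) in self-renewal, and the 9 genes described here carry its signal. They were chosen by symbol, with earlier results of these data known, and are 9 of the 25965 genes in the deposited table. In the order of the signal they are the ligand Lif, the receptor chains Lifr and Il6st, the kinase Jak1, the transcription factor Stat3, the inhibitor Socs3, and Klf5, Pim1 and Junb, which STAT3 can switch on. LIF binds LIFR, which pairs with the shared chain gp130, the product of Il6st. The JAK kinases bound to the receptor then phosphorylate STAT3, which enters the nucleus and switches on genes that include Socs3, and SOCS3 in turn shuts the receptor down. In mESCs this pathway is the route by which LIF holds back differentiation, so its genes are read here as LIF was withdrawn and on the days after.

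RNA-seq was made from female F1 mESCs of an FVB/NJ mother and a CAST/EiJ father. The Day0 library came from cells in 2i+LIF medium, where 2i stands for inhibitors of MEK and GSK3, before any virus was added. The other 12 libraries came from cells that were moved stepwise into DME HiHi, a medium with serum and no added LIF, transduced with a short hairpin RNA by retrovirus on day 2, selected with puromycin from day 3 and harvested on days 4, 5, 6 and 7. On each of these days 1 library carried the nonsilencing hairpin (Nons), 1 carried Smarcc1.6 and 1 carried Smarcc1.7, and the latter both target Smarcc1, a core subunit of the BAF chromatin remodelling complex. All 12 therefore share the weaning, the virus and the selection, and there is no untransduced library of days 4 to 7. The weaning removed LIF and the 2i inhibitors together and brought in serum, so these cannot be told apart in comparisons with Day0. Whether the medium of the viral step held LIF is not clear from the study's methods. The 4 days served as the replicates of a group, so each p-value measures the spread between days and libraries and not between separate cultures. In the fits of knockdown and of its change over days, both hairpin libraries of a day entered as separate points beside 1 Nons library. The 8 same-day differences of a gene therefore rest on 4 Nons libraries. Where the hairpin libraries of a day vary together, the p-values can be too small. The RNA was extracted from whole cultures, in which fewer cells of a type and less RNA per cell cannot be told apart.

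The hairpins are shown because every comparison rests on them. Their guide strands are the designed sequences of the study, written 5′ to 3′ as DNA with the seed (bases 2 to 8) in capitals.
Nons: cTTACTCTcgcccaagcgagag
Smarcc1.6: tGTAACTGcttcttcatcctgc
Smarcc1.7: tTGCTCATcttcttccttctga
The Smarcc1.6 site lies in exon 13 of Smarcc1 at chr9:110177472-110177493 and the Smarcc1.7 site in exon 11 at chr9:110173911-110173932 (mm10), both in coding sequence. Each matched 5 of the 9 annotated Smarcc1 transcripts exactly, and the Nons guide matched 0. Smarcc1 RNA was lower than in same-day Nons in 8 of 8 comparisons, by 1.06 ± 0.14 (SE) on the log2 scale in limma (a change of -1.06, adjusted p = 0.00232), or 48.0% of the Nons level. The difference was smallest on day 7 with both hairpins. On days 4 to 7 the level was 31.2%, 36.2%, 50.2% and 65.5% of Nons with Smarcc1.6. With Smarcc1.7 it was 45.4%, 47.2%, 46.3% and 76.8%. On the log2 scale Smarcc1 in Nons itself went from 9.10 on day 4 to 7.89 on day 7. Over the same days it went from 7.42 to 7.28 with Smarcc1.6 and from 7.96 to 7.51 with Smarcc1.7.

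Depth ran from 13993440 to 63548092 mapped reads a library, and the members had between 80 reads (Lifr in Smarcc1.7, day 5) and 15080 reads (Pim1). Values are log2 CPM, the log2 of read counts scaled to a common number of mapped reads. In Day0 and the day 6 libraries (4 libraries) 85.3% to 86.5% of mapped reads fell in genes, against 91.6% to 92.6% in the other 9. Of the tested genes 4.17% stood at least 1 log2 unit away on day 6 from the mean of days 5 and 7, in the same direction in all 3 groups, and 0 of the 9 members did. Comparisons with Nons were made within a day and so within these sets. Comparisons between days and with Day0 cross them.

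Before any hairpin was present, Day0 held the highest level of 5 members. Lifr, Il6st, Stat3, Socs3 and Klf5 were higher there than in every one of the 12 later libraries. Jak1 was above 10 of the 12, Lif and Pim1 above 6 each, and Junb above 1. The lowest level that Nons reached over days 4 to 7 was 11.2% of Day0 for Socs3, 17.0% for Klf5, 19.7% for Il6st, 20.03% for Lifr and 27.5% for Stat3, but 42.9% for Lif, 46.6% for Pim1, 58.4% for Jak1 and 77.2% for Junb. By its lowest level in Nons, Socs3 was thus the member furthest below Day0. With Smarcc1.7 that member was Klf5, at 13.7% of Day0 against 15.0% for Socs3. On day 7 Klf5 stood further below Day0 than Socs3 in all 3 groups, in Nons at -1.65 against -1.18 on the log2 scale. Day0 is 1 library, so these differences have no replicate check.

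**Figure D1:**
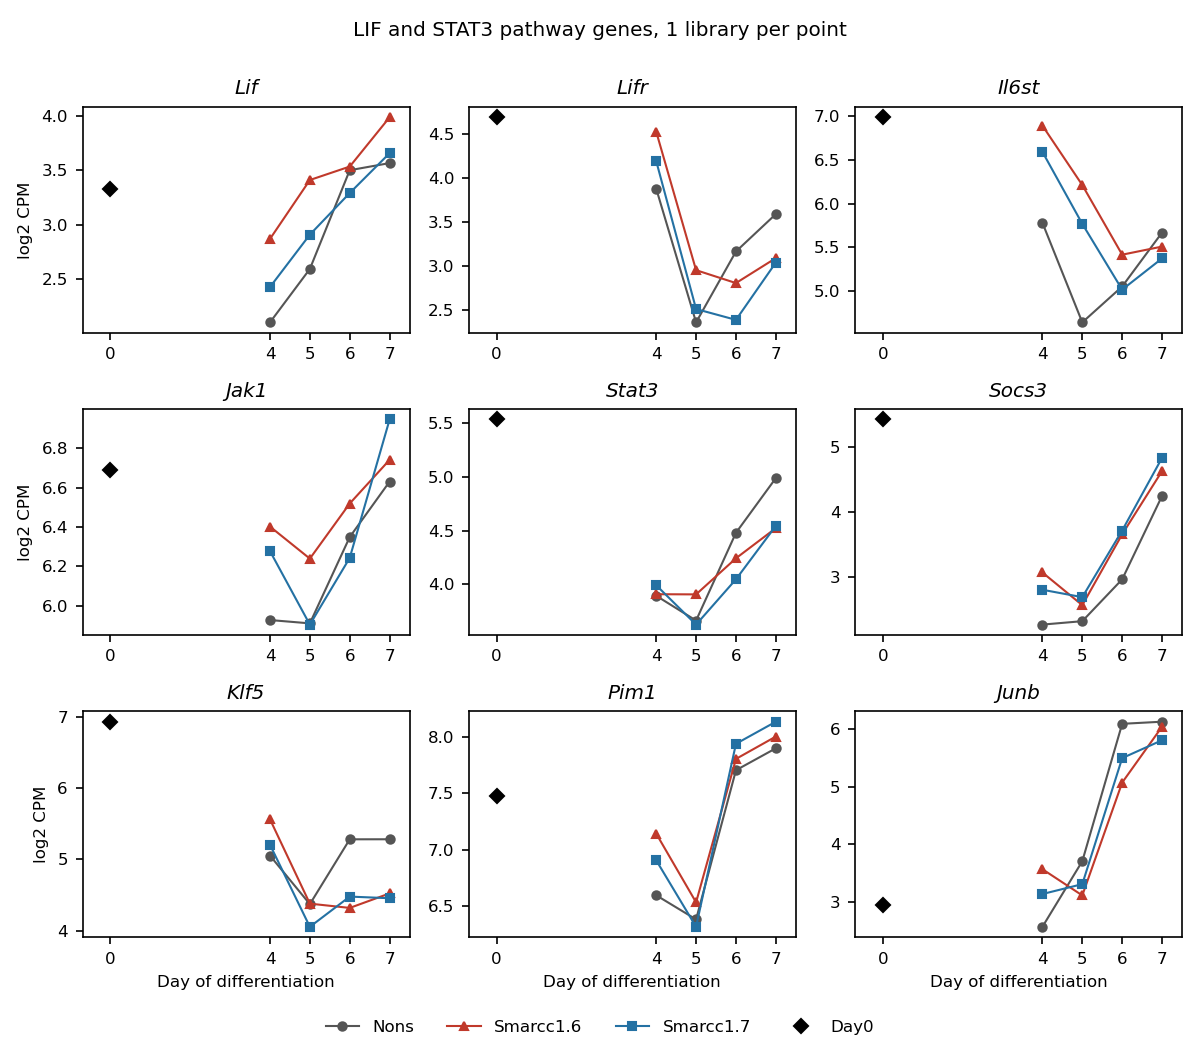
Level of each member (vertical axis, log2 CPM, own scale in each panel) against day of differentiation, 1 library per point, with Nons as grey circles, Smarcc1.6 as red triangles, Smarcc1.7 as blue squares and Day0 as a black diamond. Socs3 in both hairpin lines lies above Nons on all 4 days, and the hairpin lines of Klf5, Lifr and Stat3 lie below Nons on days 6 and 7.

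Per kilobase of exon, the most abundant member was Pim1, a serine/threonine kinase that promotes survival. It stood at 5.73 on the log2 CPM per kilobase scale at Day0 and at 5.40 ± 0.77 (SD, n = 4 days) in Nons. Junb and Jak1 followed in Nons at 3.42 ± 1.77 and 3.35 ± 0.35, and differed by less than their spread. Klf5 at 2.62 ± 0.43, Il6st at 1.81 ± 0.54, Socs3 at 1.41 ± 0.92, Stat3 at 1.00 ± 0.59, Lif at 0.82 ± 0.71 and Lifr at -0.18 ± 0.66 came after them. From Il6st to Lif each gene was within the larger SD of the next, and Pim1 from Junb, Jak1 from Klf5, Klf5 from Il6st and Lif from Lifr were further apart than that. The receptor chains thus differed on this scale, with Il6st above Lifr. At Day0 the order was Pim1, Klf5 (4.55), Socs3 (3.89), Jak1 (3.83), Il6st (3.51), Stat3 (2.28), Junb (1.75), Lifr (1.25) and Lif (1.20), so Socs3 stood above Jak1 there and Junb below Stat3. Exon lengths were those of the GENCODE M21 annotation. The gene spans given with the values differ from it for Lifr, Il6st, Klf5, Pim1 and Junb, so these orders hold for GENCODE lengths only.

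The comparison of knockdown with Nons asked which members depended on Smarcc1. Of the 9 members 1, Socs3, differed from Nons at an adjusted p under 0.05 in limma, and it was higher. Over all 13406 genes tested 11.6% were called, 6.88% higher and 4.77% lower, so a count of 1 in 9 is near the background. The median change of the members was 0.20, against -0.01 over all genes tested.

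Socs3 (chr11:117966079-117970047, mm10, minus strand, protein coding) encodes the inhibitor that binds gp130 and the JAKs and ends the signal. Its level was 5.42 at Day0. The Nons libraries of days 4, 5, 6 and 7 had 2.26, 2.32, 2.96 and 4.25. Smarcc1.6 gave 3.07, 2.56, 3.65 and 4.63 and Smarcc1.7 gave 2.80, 2.69, 3.71 and 4.83 on the same days. Every hairpin library was above the Nons library of its day, while the groups overlapped across days because all 3 were highest on day 7. The same-day difference was 0.53 ± 0.26 (SD, n = 4 days) for Smarcc1.6 and 0.56 ± 0.16 (SD, n = 4 days) for Smarcc1.7, which is 145% and 148% of the Nons level. As knockdown, with both hairpins in 1 fit, the change was 0.55 ± 0.10 (SE), with an adjusted p of 0.00802 in limma and 8 of 8 differences positive. Among the tested genes 7.89% had all 8 differences positive and 7.1% had all 8 negative. In the joint fit of all 3 groups each hairpin was also called against Nons, with adjusted p = 0.0251 for Smarcc1.6, where 9.3% of genes were called and 5.59% were higher, and 0.0454 for Smarcc1.7, where 2.45% were called and 1.69% were higher. These comparisons share the Nons libraries. The call for Smarcc1.6 was kept in 15 of 23 alternatives and that for Smarcc1.7 in 5 of 23. Fitting 1 hairpin at a time with Nons gave neither call, at an adjusted p of 0.12 with Smarcc1.6 and of 0.105 with Smarcc1.7.

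The Socs3 difference was present in both library sets but its call was not. On day 6 it was 0.69 and 0.75 for the 2 hairpins. Without day 6 the estimate was 0.49, and the adjusted p of 0.0755 missed the threshold. Over 25 alternative fits the estimate ran from 0.49 to 0.63 and the adjusted p from 0.00681 to 1.00, and 21 fits called it.

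The Socs3 promoter is shown because this was the member that changed and because STAT3 is known to act on that gene. STAT dimers bind the letters TTCNNNGAA, which read the same on both strands. In RefSeq promoter windows of 300 bases (GRCm38.p6, from 250 bases before to 50 after the start), 8 of the 9 members had an entry, with 10 windows. Only the Socs3 window held the letters, at chr11:117969512-117969520, between 154 and 146 bases before the RefSeq start. The match is given in capitals with 10 bases on each side, 5′ to 3′ on the strand of the gene.
Socs3: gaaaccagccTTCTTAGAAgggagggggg
Of all 32851 windows 8.3% held the same letters. The match describes the sequence and does not show a bound site, and the files hold no binding data for it.

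Lif itself (chr11:4257557-4272514) is the ligand, so the RNA measured here is the cells' own. Its level was 3.32 at Day0. Nons had 2.10, 2.59, 3.50 and 3.56 on days 4 to 7, Smarcc1.6 had 2.87, 3.41, 3.53 and 3.99, and Smarcc1.7 had 2.43, 2.91, 3.29 and 3.66. On days 4 and 5 both hairpins were above Nons, and on day 6 they differed from it by 0.03 and -0.21. For Smarcc1.6 the change was 0.51 ± 0.14 (SE, adjusted p = 0.0457, higher on 4 of 4 days), so Lif and Socs3 were the 2 members called for this hairpin. The Lif call was lost in 18 of 23 alternative fits, among them each fit that left out 1 day, while its estimate stayed between 0.41 and 0.67. For Smarcc1.7 the change was 0.13 ± 0.14 (SE, adjusted p = 0.634), and for both hairpins as knockdown 0.32 ± 0.15 (SE, adjusted p = 0.189, higher in 7 of 8). The hairpins themselves differed by 0.38 in Lif, with a 95% interval of 0.07 to 0.69 and an adjusted p of 0.989, so a difference between them was not shown.

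The receptor chains were above Nons on days 4 and 5 with both hairpins and below it on day 7. For Il6st (chr13:112475008-112506860), the gp130 chain shared by the interleukin-6 family, Day0 stood at 6.99. Its levels in Nons were 5.78, 4.64, 5.05 and 5.67 on days 4 to 7, against 6.89, 6.21, 5.42 and 5.51 with Smarcc1.6 and 6.59, 5.77, 5.02 and 5.37 with Smarcc1.7. With the hairpins day 4 was close to Day0, 0.10 below it for Smarcc1.6 and 0.40 below it for Smarcc1.7, whereas Nons was 1.21 below Day0 on that day. The mean of the 2 hairpins minus Nons was 0.96 on day 4, 1.35 on day 5, 0.16 on day 6 and -0.23 on day 7. The knockdown change of 0.56 ± 0.21 (SE, adjusted p = 0.0985, higher in 5 of 8) was as large as that of Socs3 and did not pass the test. Without the Nons library of day 7 it was 0.82 with an adjusted p of 0.0194, and over 25 alternatives the adjusted p ran from 0.0194 to 1.00.

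Lifr (chr15:7129559-7197489) encodes the chain that binds LIF. From 4.68 at Day0 its level in Nons went to 3.88, 2.36, 3.17 and 3.59 on days 4 to 7. The Smarcc1.6 levels were 4.52, 2.95, 2.81 and 3.09 and the Smarcc1.7 levels 4.19, 2.52, 2.39 and 3.04. On days 4 and 5 both hairpins were above Nons, and on days 6 and 7 both were below. The differences therefore cancelled in the mean, at -0.06 ± 0.19 (SE, adjusted p = 0.869, higher in 4 of 8), with a 95% interval of -0.47 to 0.35.

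Jak1 (chr4:101152367-101265282), the kinase that gp130 signalling depends on most, lay between 5.90 and 6.95 in the 12 libraries. Day0 stood at 6.69 and Nons at 5.93, 5.91, 6.35 and 6.63. Smarcc1.6 gave 6.40, 6.24, 6.52 and 6.74, and Smarcc1.7 gave 6.28, 5.90, 6.24 and 6.95. Smarcc1.6 was above Nons on 4 of 4 days and Smarcc1.7 on 2 of 4, and the knockdown change was 0.20 ± 0.09 (SE, adjusted p = 0.144).

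Stat3 (chr11:100885098-100939540), the transcription factor of the pathway, stood at 5.53 at Day0 and at 3.90, 3.67, 4.48 and 4.99 in Nons. The values with Smarcc1.6 were 3.91, 3.91, 4.24 and 4.52, and with Smarcc1.7 they were 3.99, 3.63, 4.05 and 4.54. On day 4 the hairpins differed from Nons by 0.01 and 0.10, and on days 6 and 7 both hairpins were below Nons. The knockdown change of -0.16 ± 0.11 (SE, adjusted p = 0.362, higher in 3 of 8) did not pass the test.

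**Figure D2:**
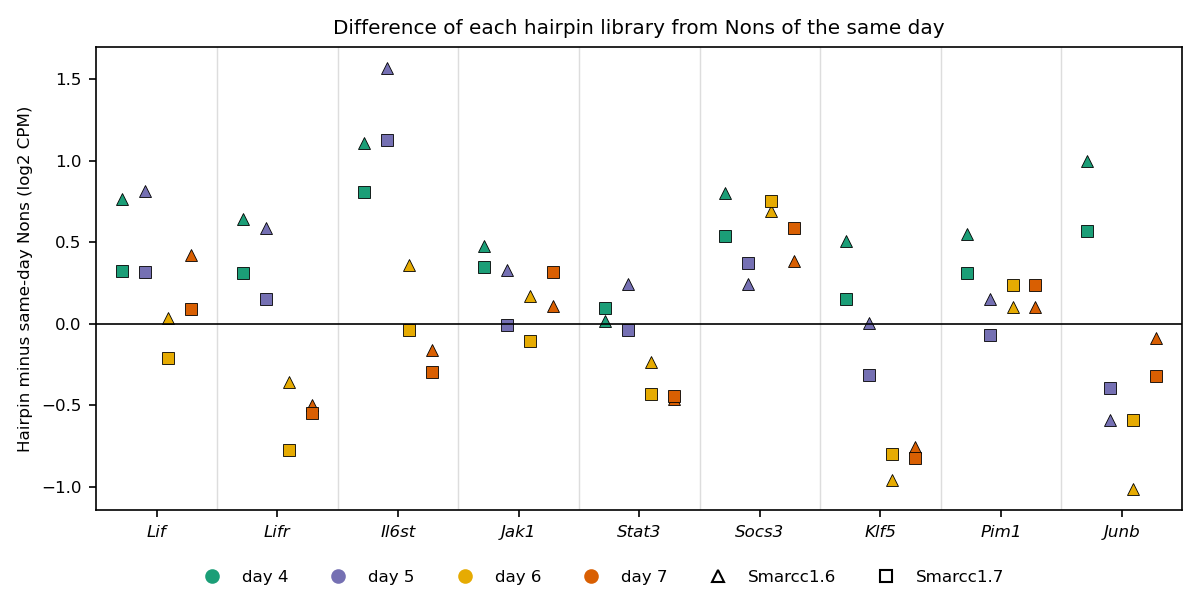
Level with a hairpin minus the level in Nons of the same day (vertical axis, log2 CPM) for each member, with triangles for Smarcc1.6 and squares for Smarcc1.7 and with day 4 in green, day 5 in violet, day 6 in yellow and day 7 in orange. The 8 points of Socs3 lie between 0.25 and 0.80, all above 0, while those of Il6st run from 1.57 on day 5 to -0.30 on day 7.

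Among the targets, Klf5 (chr14:99298691-99313405) encodes a Krüppel-like factor of the naive stem cell state. It stood at 6.93 at Day0 and at 5.05, 4.37, 5.28 and 5.28 in Nons. Smarcc1.6 gave 5.56, 4.38, 4.32 and 4.53, and Smarcc1.7 gave 5.21, 4.06, 4.48 and 4.46. Day 4 was the highest day with both hairpins, while Nons on days 6 and 7 was above its own day 4. The mean of the hairpins minus Nons was 0.33 on day 4, -0.15 on day 5, -0.88 on day 6 and -0.79 on day 7. As a mean over days the knockdown change was -0.37 ± 0.17 (SE, adjusted p = 0.169, lower in 5 of 8), and without the Nons library of day 4 it was -0.61 with an adjusted p of 0.0152, in a range of 0.0152 to 1.00 over 25 alternatives.

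Pim1 (chr17:29490812-29495445) stood at 7.48 at Day0 and at 6.60, 6.38, 7.71 and 7.90 in Nons. Under Smarcc1.6 the levels read 7.14, 6.53, 7.81 and 8.01, and under Smarcc1.7 6.91, 6.31, 7.94 and 8.14. Smarcc1.7 on day 5 was the 1 hairpin library below its Nons library, and the knockdown change was 0.20 ± 0.07 (SE, adjusted p = 0.0973, higher in 7 of 8). Of the annotated exon bases of Pim1, 14.5% overlap the antisense gene Gm26885, and whether strand was used in counting is not given in the sources used here, so reads of the pair cannot be told apart there.

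Junb (chr8:84976909-84978748), an AP-1 subunit and an immediate early gene that serum also induces, had the widest range. Day0 stood at 2.95 and Nons at 2.57, 3.71, 6.08 and 6.12. The Smarcc1.6 libraries had 3.57, 3.12, 5.07 and 6.03 and the Smarcc1.7 libraries 3.14, 3.31, 5.49 and 5.80. Both hairpins were above Nons on day 4 and below it on days 5, 6 and 7, and the knockdown change of -0.18 ± 0.20 (SE, adjusted p = 0.61) did not pass the test. Without the Nons library of day 4 it was -0.50 with an adjusted p of 0.0365, in a range of 0.0365 to 1.00 over 25 alternatives. Of the Junb exon bases in GENCODE 7.52% overlap Prdx2 on the other strand. For both Pim1 and Junb the GENCODE gene reaches beyond the span given with the values. Whether the overlaps lie within that span was not examined.

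A direct comparison of the hairpins found 0 of 9 members to differ (1, Lif, at an unadjusted p under 0.05), against 0 of 13406 genes (0% called) in limma and 0 with limma voom on the recovered reads. At an unadjusted p under 0.05 there were 530 genes in the former and 584 in the latter. Socs3 differed by -0.03 (95% interval -0.30 to 0.24) between Smarcc1.6 and Smarcc1.7. For Il6st and Lifr the intervals reached from -0.19 to 0.83 and from -0.14 to 0.76, so differences of that size are not excluded for the receptor chains.

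Over days 4 to 7, fitted with group as a factor, 7 of the 9 members were called, 6 upward and 1 downward. Over all genes tested 60.5% were called in this comparison, 34.9% upward and 25.6% downward. Junb rose by 1.08 ± 0.14 (SE) log2 units per day (adjusted p = 9.28e-05), Socs3 by 0.65 ± 0.10 (adjusted p = 0.000346), Pim1 by 0.48 ± 0.11 (adjusted p = 0.00348) and Lif by 0.43 ± 0.05 (adjusted p = 5.73e-05). Stat3 rose by 0.28 ± 0.07 (adjusted p = 0.0046) and Jak1 by 0.21 ± 0.06 (adjusted p = 0.00878), and both of these calls, with those of Socs3 and Pim1, were lost without day 7. Jak1 was also not called when each library was centred on its median gene (0.13 per day, adjusted p = 0.0557). Il6st changed by -0.31 ± 0.12 per day (adjusted p = 0.0456). In Nons alone that slope was 0.0075, and over all groups without day 4 it was -0.01 with an adjusted p of 0.962. Klf5 at -0.11 ± 0.12 and Lifr at -0.27 ± 0.17 per day were not called. Here and in every other change per day across groups, libraries of the same day entered as separate points although they share that day. The p-values can therefore be too small. In Nons alone, with 1 library a day, Junb was the only member called, and 1620 of all genes tested were called.

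In Nons, Socs3 was 1.98 higher on day 7 than on day 4 and Junb 3.55 higher, while Il6st and Lifr were 0.11 and 0.29 lower. From day 5 to day 7 in Nons the receptor chains were higher too, Il6st by 1.03 and Lifr by 1.22, beside 1.93 for Socs3. With the hairpins Il6st was lower on day 7 than on day 5, by 0.70 for Smarcc1.6 and 0.39 for Smarcc1.7 (differences of -0.70 and -0.39). Socs3 on day 7 nevertheless remained 1.18 below Day0 in Nons, 0.79 below with Smarcc1.6 and 0.59 below with Smarcc1.7. In all 3 groups day 5 was the lowest day for Jak1, Stat3 and Pim1, and day 7 the highest for Lif, Jak1, Stat3, Socs3, Pim1 and Junb.

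Whether the difference from Nons itself changed over the days was tested as a product of knockdown and day, with day also fitted as a factor. Of the 9 members 1, Klf5, passed, and 3.75% of all genes tested did, 1.32% with a negative slope. The Klf5 difference changed by -0.41 ± 0.09 (SE) per day (adjusted p = 0.0332), and 14 of 23 alternatives called it. It was not called without day 4 (-0.32, adjusted p = 0.335). The same held without day 5 (-0.41, adjusted p = 0.0645) and without day 6 (-0.37, adjusted p = 0.0729). Over the alternatives the adjusted p ran from 0.0198 to 0.968. Il6st at -0.47 ± 0.12 (adjusted p = 0.0577) and Lifr at -0.39 ± 0.12 (adjusted p = 0.0972) had slopes of the same sign and missed the threshold. Junb at -0.33 ± 0.15 (adjusted p = 0.283) and Stat3 at -0.20 ± 0.08 (adjusted p = 0.189) did so too. These 5 members had both hairpins above Nons on day 4 and below it on day 7, an arrangement that 14.1% of the tested genes showed. The Socs3 difference had a slope of -0.01 ± 0.09 per day (95% interval -0.22 to 0.19).

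**Figure D3:**
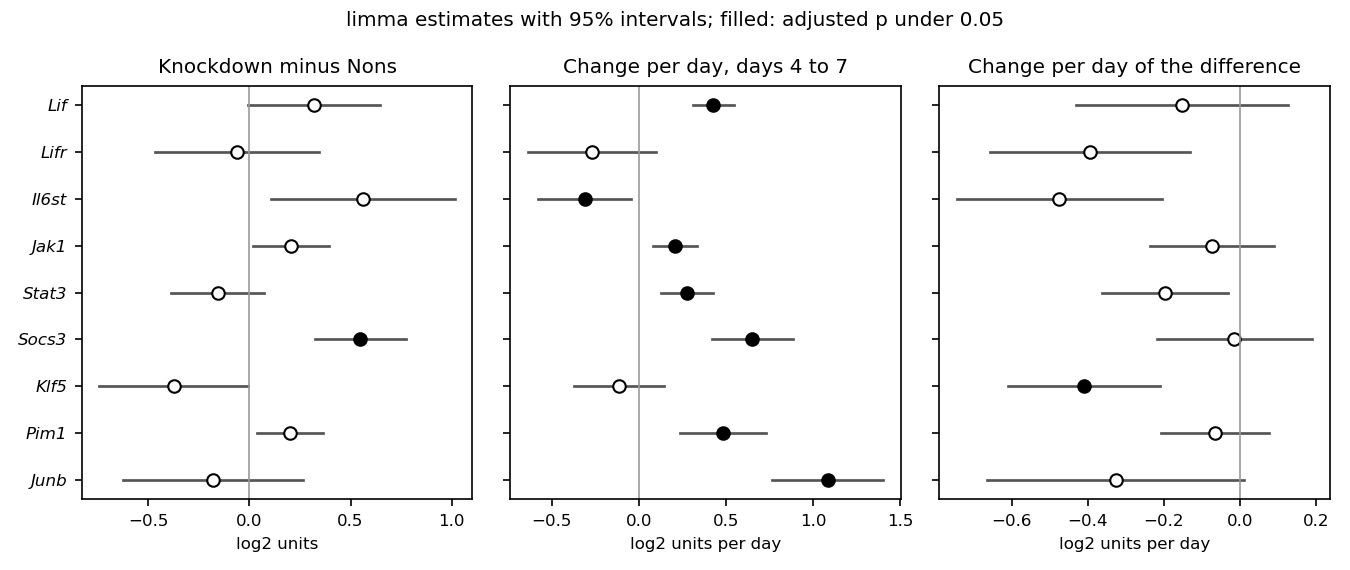
limma estimates (points) with 95% intervals (lines) for the 9 members, with knockdown minus Nons in log2 units on the left, the change per day in the middle and the change per day of the knockdown difference on the right, both in log2 units per day; filled points have an adjusted p under 0.05. Socs3 is the filled point on the left at 0.55, 7 points are filled in the middle, and Klf5 is filled on the right at -0.41.

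The other genes of the pathway numbered 43, of which 37 passed the filter on low values. For knockdown 4 were higher and 1 was lower, a share near the 11.6% of all genes called, and their median change was 0.04. Of the 2 other ligands tested 0 were called in limma or in voom (0 at an unadjusted p under 0.05), and the larger change was that of Cntf, ciliary neurotrophic factor, at -0.11 (adjusted p = 0.832). Of the 3 other receptor chains 0 were called by either (1 unadjusted), with Cntfr, the chain that binds ciliary neurotrophic factor, at -0.51 (adjusted p = 0.0714). Of the 8 other kinases and STATs 0 were called by either (0 unadjusted).

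In the branch that runs through the phosphatase SHP2 to the MAP kinases, Ptpn11, which encodes SHP2, fell by 0.22 (a change of -0.22 ± 0.06 SE, adjusted p = 0.033), and the adaptor Gab1 had the largest change, 0.29 (adjusted p = 0.057). Of the 10 other inhibitors 1 was called, Pias2, a SUMO ligase of the family named as inhibitors of activated STATs, which rose by 0.25 ± 0.05 (SE, adjusted p = 0.0155). The Ptpn11 call was kept in 10 of 25 alternatives and the Pias2 call in 18.

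Of the 9 other STAT3 targets tested 3 were called higher with knockdown, where 6.88% of all genes tested were. These 3 are transcription factors of the naive state. In CPM, Gbx2 stood at 11.04 at Day0 and at 12.4, 3.04, 1.31 and 0.472 in Nons on days 4 to 7. The Smarcc1.6 libraries had 34.2, 8.97, 6.69 and 2.25 CPM, and the Smarcc1.7 libraries 24.0, 8.08, 4.62 and 1.26 CPM. Each hairpin library was above its Nons library and Gbx2 rose by 1.65 ± 0.20 on the log2 scale (SE, adjusted p = 0.00166). Klf4 rose by 1.40 ± 0.29 (adjusted p = 0.0128). Its call was lost without the Nons library of day 5 (1.19, adjusted p = 0.066), and 20 of 25 alternatives kept it, with an adjusted p between 0.00442 and 1.00.

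Tfcp2l1, the target through which STAT3 is known to sustain mESCs, stood at 9.91 at Day0 and at 5.62, 4.57, 4.06 and 4.36 in Nons. It was at 7.37, 5.89, 4.62 and 4.33 with Smarcc1.6 and at 6.96, 5.28, 4.22 and 4.63 with Smarcc1.7. Both hairpins were above Nons on days 4, 5 and 6, and Smarcc1.6 was below it on day 7. Its change was 0.76 ± 0.20 (adjusted p = 0.036), which 10 of 25 alternatives called. The difference shrank by 0.49 per day (a slope of -0.49, adjusted p = 0.0367), and 10 of 23 alternatives called that slope. The slope was named after its value was seen.

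**Figure D4:**
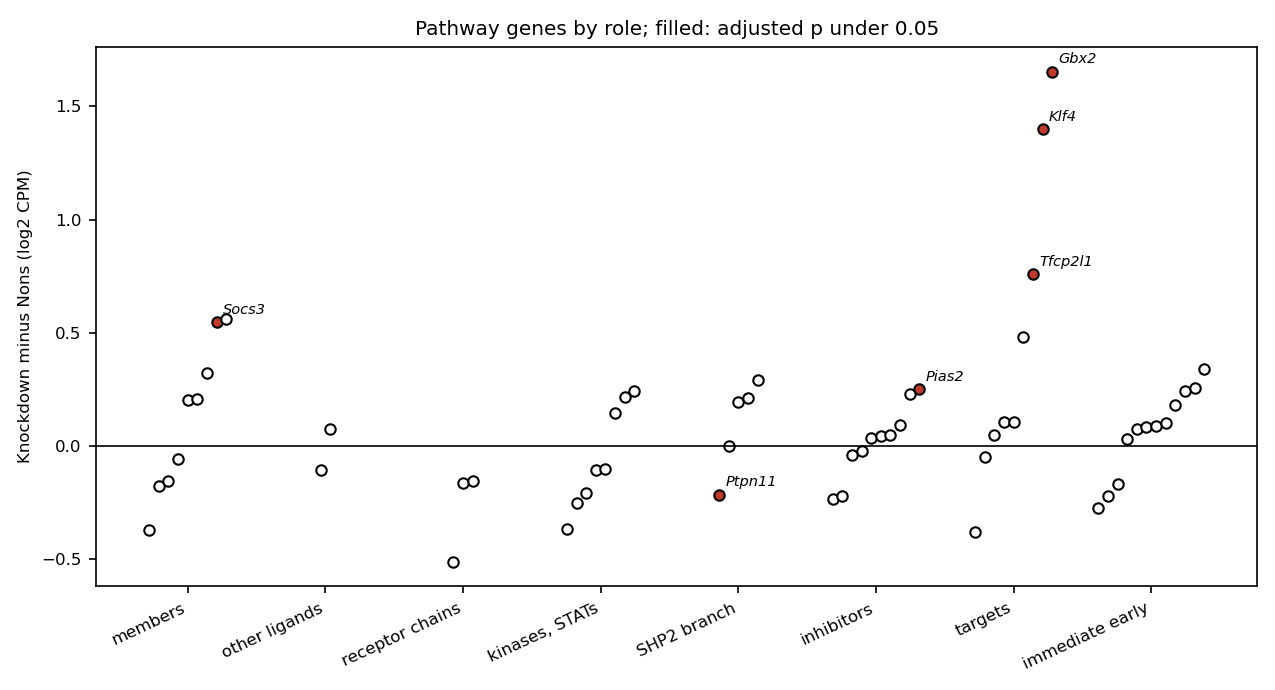
Knockdown minus Nons (vertical axis, log2 CPM, limma estimate) for the 9 members, the 37 other pathway genes by role and the 12 immediate early genes, 1 point per gene, filled red where the adjusted p is under 0.05. The filled points above 0 are Socs3, Pias2, Tfcp2l1, Klf4 and Gbx2, the filled point below 0 is Ptpn11 at -0.22, and the immediate early genes have none.

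Over the days, 14 of the 37 other pathway genes rose and 11 fell, shares near the 34.9% and 25.6% of all genes tested. The 3 other receptor chains tested all rose, as did 4 of the 8 other kinases and STATs, with Stat5b at 1.52 and Stat2 at 0.68 log2 units per day. Among the receptor chains Il6ra was called in 15 of 23 alternatives, Cntfr in 17 of 24 and Il11ra1 in 21 of 23. Il6ra and Cntfr were not called when each library was centred on its median gene. Of the 9 other targets 4 fell, namely Gbx2 (-1.37 per day), Klf4 (-0.99), Tfcp2l1 (-0.76) and Pim2 (-0.65), and Pim3 (0.69) and Cebpb (0.64) rose. Among the 10 other inhibitors 2 rose, Cish by 1.03 per day and Socs1 by 0.28, and 4 fell, namely Socs2 (-0.63), Pias2, Pias3 and Pias4.

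Junb and Socs3 are also induced by serum and by handling of cells, so 15 immediate early genes were examined beside them. Of these 12 were tested. For knockdown 0 of the 12 were called in limma (1 at an unadjusted p under 0.05) and 0 with limma voom (2 unadjusted), with a median change of 0.08. Over the days 8 rose and 0 fell, where 34.9% of all genes rose and 25.6% fell, with a median of 0.52 log2 units per day against 0.04 over all genes tested. The largest rises were in Ier3 (1.31 per day), Atf3 (0.96), Jun (0.79) and Btg2 (0.69). These 8 genes rose over the same days as Junb and Socs3, and their part in the rise of these 2 members was not tested.

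The RNA of cell type markers moved over the same days, while the makeup of the cultures was not measured. The summed level of 6 pluripotency genes was 4331 CPM at Day0, 1084 to 1733 CPM in Nons, 1349 to 2549 CPM with Smarcc1.6 and 1085 to 2129 CPM with Smarcc1.7. Sox2, Zfp42, Klf2 and Esrrb were called higher with knockdown, by 0.69 to 1.11 on the log2 scale, where 6.88% of all genes tested were. Pou5f1 (0.07, adjusted p = 0.604) and Nanog (0.74, adjusted p = 0.0859) were not called. The 6 epithelial and trophoblast markers summed to 10.9 CPM at Day0 and reached 3664, 3315 and 2820 CPM in Nons, Smarcc1.6 and Smarcc1.7, all on day 7. On day 5 they stood at 238, 131 and 142 CPM in the same order, lower with both hairpins. The 6 markers of smooth muscle and fibroblasts summed to 10.4 CPM at Day0. On day 5 they were at 49.1 CPM in Nons, 23.8 with Smarcc1.6 and 21.7 with Smarcc1.7, on day 6 at 735, 276 and 438 CPM, and on day 7 at 1034, 1354 and 1272 CPM, so the hairpins were below Nons on days 5 and 6 and above it on day 7. The 5 mesoderm markers stood on day 7 at 272 CPM in Nons, 56.2 with Smarcc1.6 and 33.5 with Smarcc1.7.

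Single markers of other cell types differed with knockdown as well. Krt8 (-0.50, adjusted p = 0.0375), Sox17 (-0.88, adjusted p = 0.0369) and the mesoderm gene T (-2.50, adjusted p = 0.0341) fell. Sox1 (2.07, adjusted p = 0.0478), Thy1 (0.83, adjusted p = 0.024) and Cd68 (0.84, adjusted p = 0.0364) rose. Thy1 was the only gene called of 5 tested smooth muscle and fibroblast markers, whose median change was -0.34. Cd68 was the only gene called of 2 tested macrophage markers, and the macrophage marker Adgre1 was under the filter. These single genes therefore do not stand for their lists. Of the alternatives, 10 of 25 kept the call of Krt8, 8 of 24 that of Sox17, 11 of 25 that of T, 6 of 24 that of Sox1, 17 of 25 that of Thy1 and 9 of 25 that of Cd68. The 4 neuroectoderm markers, Sox1 among them, summed to less with both hairpins than in Nons on days 4, 5 and 6, with 75.2 CPM in Nons and 38.7 and 43.4 CPM with the hairpins on day 5. On day 7 they summed to more, with 261 and 199.9 CPM against 166 CPM in Nons. The blood markers summed to at most 5.57 CPM in any library, and Ptprc, which marks blood cells, had a mean log2 CPM of -5.26. The part of these cell types in the levels of the pathway genes was not tested.

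The genes whose pattern was most like that of Socs3 were found by Pearson's r over the 12 libraries of days 4 to 7 after the mean of each day was removed. They were Tspan1 (r = 0.976), Ddx25 (r = 0.970) and Fsbp (r = 0.956), and 69 genes had an r above 0.9. The 12 libraries share days and groups, so r is a description. The knockdown changes of Tspan1, Ddx25 and Fsbp were 1.22, 0.41 and 0.47.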

How the data were processed

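Per the study's methods, the authors made TruSeq libraries, sequenced them as paired-end reads, trimmed them, aligned them with tophat or hisat2 to mm10 masked at positions differing between the parental strains, and counted reads in Seqmonk. The submitters' processing notes name TopHat2 2.0.12. The annotation release and strand setting are not given in the sources used here. The deposited values are log2 CPM of mapped reads, with 0 reads written as 0.9 reads. In every library 100% of low values were whole reads (tolerance 0.02 reads), which gave the depth. The limit that a count of 0 allows covers counting error only, while the 95% intervals of changes are limma's and measure the spread between days and libraries.

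Groups and days came from the sample titles. Linear models were fitted to the log2 values with limma 3.58.1 in R 4.3.3 (eBayes with trend) for the 13406 genes averaging 0 or more log2 CPM over the 12 libraries, with Benjamini-Hochberg adjustment over all of them and a threshold of 0.05. Day was a factor in comparisons of groups, because the replicate number is the harvest day and so pairs the libraries, and group was a factor in the change per day. limma voom was run on recovered reads as an alternative. The fits were also run on simulated counts drawn independently for each library, so that run does not show how shared days affect the p-values. Day0 entered no test. Exon overlaps, lengths and hairpin sites came from GENCODE M21, and promoters from RefSeq. Cebpd was not analysed here, and Adgre1 is listed under its older symbol Emr1.

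The members and lists were chosen with earlier results of these data known. The text names all members, Smarcc1, list genes called for knockdown, the largest change in each pathway role (that of the kinases and STATs is not reported here), and the 3 genes most like a called member. List genes named for their change per day, the slope of Tfcp2l1, and Osm, Il11, Clcf1 and Osmr were chosen after their values were seen. Figures used Python 3.11.15 and matplotlib 3.10.9.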

Additional observations from a re-analysis of the deposited data

Results flagged for a closer look

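Within groups of 4 libraries, 2 of 27 had 1 library far from the other 3. A rate of 1 in 20 would give about 1.35, but that rate is for values without a trend over days, so it is no chance level here. Lifr in Smarcc1.6 on day 4 stood at 4.52 against 2.81 to 3.09 on the later days, and Klf5 in Smarcc1.6 on day 4 stood at 5.56 against 4.32 to 4.53. In both the day 4 library was the high one, and day 4 was also the highest day of these genes with Smarcc1.7.

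The Klf5 difference between knockdown and Nons changed over the days by -0.41 per day in a test of that change. For 5 members both hairpins lay above Nons on day 4 and below it on day 7. The difference on day 7 minus that on day 4 was -1.001 for Lifr, -1.19 for Il6st, -0.51 for Stat3, -1.12 for Klf5 and -0.99 for Junb. These day 7 minus day 4 differences were not tested as such, and the test over all 4 days was passed by Klf5 alone. Among all tested genes 14.1% showed this arrangement.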

How the results depend on the processing

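Each member's values were recomputed under 23 to 25 alternatives. Of 1269 values, 1167 kept their side of the threshold, 52 of these with the opposite sign but uncalled in either fit, while 81 lost a call, 20 gained one and 1 changed sign, the Il6st slope in Nons alone (0.0075). For the other genes named, 1198 of 1491 values kept their side and 3 changed sign: the slopes of Ctf1 (-0.016 without day 4, to 0.49 without day 7), Grb2 (0.016 without day 4, to -0.38 without day 7) and Pim2 (-1.43 without day 4, to 0.056 without day 7).

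The day block decided the calls against Nons. Without the replicate block, with day not fitted, the members called fell from 1 to 0 for knockdown, from 2 to 0 for Smarcc1.6 and from 1 to 0 for Smarcc1.7, and 4 genes of the table were called for knockdown, against 1561. Fits of 1 hairpin with Nons called 0 members for Smarcc1.6 and 0 for Smarcc1.7. Without the filter Smarcc1.6 had 1 and Smarcc1.7 had 0, with a filter at a mean of 2 Smarcc1.7 had 0, and without the trend Smarcc1.6 had 1, Smarcc1.7 had 0 and the interaction had 0. The interaction with day as a number, added after the data were seen, called 0 members and 0 genes (745 at an unadjusted p under 0.05; against 503 genes called in the fit of the report). Fitted in Nons alone, the change per day called 1 member, Junb.

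Leaving out a day or a library gave 0 to 3 members called for knockdown (0 without day 6, and 3, namely Junb, Klf5 and Socs3, without day 4 or its Nons library). It gave 0 to 2 for Smarcc1.6, 0 to 2 for Smarcc1.7, 0 to 0 between the hairpins, 4 to 8 for the change per day (4 without day 7) and 0 to 2 for the interaction. Over the table, knockdown called 287 genes without day 6, 386 without day 5, 611 without the Nons library of day 5, 624 without that of day 6, and 952 and 1002 without the Smarcc1.6 libraries of days 6 and 5. Centring each library on its median gene moved the change per day of all genes from 4679 up and 3435 down to 3648 up and 4606 down. With 1 library per group and day, separate cultures were not compared. The members had at least 80 reads in every library, and counting error was not assessed for single same-day differences. Lifr with Smarcc1.7 on day 5, the library with 80 reads, lay 0.15 above Nons, so the side on which it lay is uncertain.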

Other observations

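Osm encodes oncostatin M, another interleukin-6 family ligand that signals through gp130, and its RNA was most abundant at Day0. Its mean was under the filter, so it entered no main test. Day0 had 240 reads (10.8 CPM). On days 4, 5, 6 and 7 Nons had 40, 0, 1 and 0 reads, Smarcc1.6 had 133, 47, 18 and 9 reads, and Smarcc1.7 had 62, 8, 10 and 0 reads. On day 4 that is 0.671 CPM in Nons, 2.09 with Smarcc1.6 and 1.42 with Smarcc1.7. Hairpin libraries had more CPM than same-day Nons in 7 of 8 comparisons, and in the other both had 0 reads, which allows up to 3 reads. In the limma fit without a filter the change was called (adjusted p = 0.0342), and its size depends on the 0.9 reads written for 0, so no fold is given. The Smarcc1.6 comparison was called in that fit (adjusted p = 0.0215) and the Smarcc1.7 comparison was not (adjusted p = 0.196).

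Other genes of the family under the filter went the opposite way over the days. Il11, the ligand interleukin-11, had 1 read at Day0 and 6, 3, 31 and 47 reads in Nons on days 4 to 7. Osmr, the receptor chain for oncostatin M, had 2 reads at Day0 and 1, 1, 7 and 18 in Nons, so on days 4 and 5 it had 1 read where Osm had 40 and 0. Clcf1, a ligand that signals through Cntfr, had 2 reads at Day0 and 25, 56, 42 and 48 in Nons. In the fit without a filter all 3 rose over the days, with adjusted p = 0.000158 for Il11, 1.49e-05 for Osmr and 0.00301 for Clcf1, and none was called for knockdown (adjusted p = 0.562, 0.871 and 0.635).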
